A study of Mus musculus with 8 samples.

Results

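Collagen genes were followed in cultures of mouse bone-marrow-derived macrophages (BMDM), primary macrophages grown from bone marrow cells in macrophage colony-stimulating factor (M-CSF) at 20 ng/ml. They were chosen by symbol, as every gene named Col, digits, a, digits, with at least 10 counts in at least 2 of the 8 libraries. Of 44 genes with such a name, 31 were kept: 10 fibrillar collagens, 7 collagens of basement membranes and the zone around them, and 14 others. Messenger RNA was sequenced from 4 groups of 2 libraries, namely untreated wild-type (WT) cells, R848-treated WT cells, untreated KAT8-deficient cells and R848-treated KAT8-deficient cells. R848 (resiquimod), an agonist of the endosomal RNA sensor TLR7, was given at 100 ng/ml for 6 h. KAT8, known as MOF, acetylates histone H4, and the labels call the mutant line a conditional knockout (KAT8-cKO). The sources used here do not give the Cre driver, the deleted part of the gene, the strain, or the age and sex of the mice.

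Collagens are proteins whose chains wind in threes into a triple helix. Fibrillar collagens assemble into the cables of bone, skin and tendon, type IV collagen forms the sheet-like network of basement membranes, and type VI forms beaded filaments around cells. Chains are hydroxylated, glycosylated and folded in the endoplasmic reticulum, trimmed outside the cell and crosslinked by lysyl oxidases. In bone marrow the main known producers are osteoblasts and stromal cells, with fibroblasts, vascular wall cells and mesothelium as producers in other tissues.

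The 8 libraries held 18550977 to 21384532 counts each, so that 3 counts correspond to 0.14 to 0.162 CPM (counts scaled to library size), a floor that covers counting error only. Kat8 itself stood at 16.0 to 18.0 CPM in WT libraries and at 8.76 to 10.8 CPM in KAT8-deficient libraries. Macrophage markers were abundant in every library, with a summed level of 8547.6 to 16380.6 CPM over 8 genes. Nothing in the labels ties the libraries to separate animals or cultures, so each p-value measures the spread between these libraries, which may be technical. Adjusted p-values are from edgeR's quasi-likelihood test with Benjamini-Hochberg adjustment over 14040 genes, and a gene is said to have risen or fallen where its adjusted p was under 0.05.

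The collagens together made up 0.321% to 0.576% of all counts. Their summed level was 3906.2 and 4637.5 CPM in untreated WT libraries and 3258.3 and 3527.9 CPM in R848-treated WT libraries. It was 5750.8 and 5489.5 CPM in untreated KAT8-deficient libraries and 4855.9 and 4906.0 CPM in R848-treated ones. Every KAT8-deficient library thus lay above every WT library, and within each genotype the R848-treated libraries lay below the untreated ones. Fibrillar collagens took 67.0% to 70.4% of collagen counts, basement membrane collagens 12.5% to 14.1% and the others 16.9% to 19.1%. The 10 most abundant genes held 93.4% to 95.0% of the collagen counts in each library. As levels per kilobase of exon, averaged over the 8 libraries, Col1a1 (138.0 CPM per kb) and Col1a2 (109.9), the chains of type I collagen, were highest. Col6a1 (86.9), Col4a1 (41.9), Col3a1 (34.9), Col6a2 (30.6), Col5a2 (30.0), Col4a2 (29.2) and Col5a1 (17.2) followed. This order depends on the length used, and over the longest transcript Col1a2 (255.4 CPM per kb) stood above Col1a1 (152.8) and Col3a1 (61.6) above Col4a1 (47.2). Collagens with low levels were frequent, with 8 of the 31 under a mean of 2 CPM and 6 between 2 and 10 CPM.

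**Figure D1:**
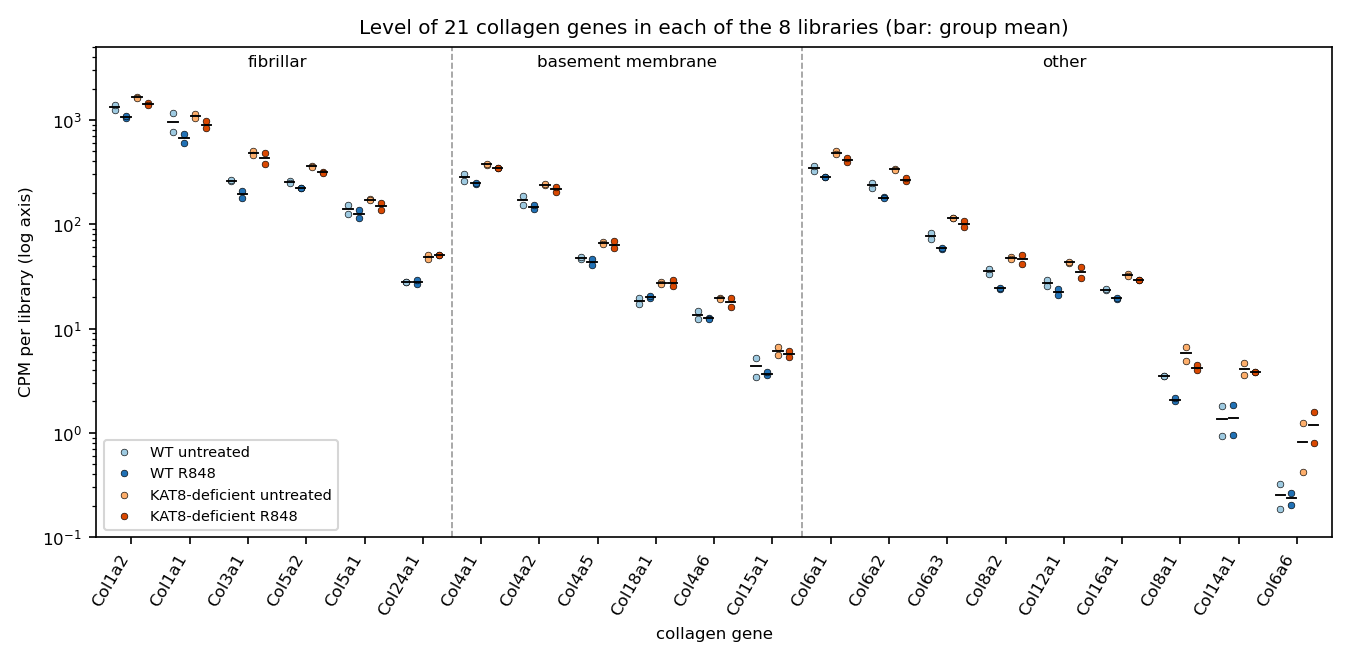
CPM of 21 collagen genes on a log axis, 1 point per library, grouped by class and coloured by genotype and treatment, with bars at the group means. Col1a2 ran from 1046.1 to 1672.2 CPM and Col6a6 from 0.186 to 1.6 CPM. In 19 of the 31 collagens (Col5a1 and Col1a1 are exceptions shown) every KAT8-deficient library lay above every WT library.

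The first comparison asked how collagen messenger RNA differed between KAT8-deficient and WT cultures. Over both treatment states, 20 of 31 collagens were higher in KAT8-deficient cells, where 11.0% of all genes tested were higher, and 0 were lower, where 7.56% of all genes were. In untreated cells 14 rose (2.91% of all genes) and 0 fell (1.36%), and under R848 17 rose (8.14%) and 0 fell (5.47%). The 14 collagens called in untreated cells were all among the 17 called under R848, and the other 3 were Col4a6, Col8a1 and Col8a2. The median log2 difference over the 31 collagens, averaged over both states, was 0.52, beside -0.01 over all genes. In 19 of the 31 every KAT8-deficient library lay above every WT library, an order found in 9.42% of all genes tested. A difference in the number of collagen-producing cells and a difference in collagen RNA per cell cannot be told apart in bulk libraries, in this comparison or in those that follow. The Cre driver is not given, so whether the collagen-producing cells themselves lacked KAT8 is unknown. Throughout, KAT8-deficient cells means all cells of the KAT8-deficient cultures. The count rested on few libraries in untreated cells. It was 2, 5, 3 and 9 without the first or second KAT8-deficient library or the first or second WT library, respectively. Under R848 the count was 8 without the first WT library. Averaged over both states it stayed between 17 and 21 when any 1 library was left out.

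Markers of some other cell types moved with the collagens, and their part in the collagen difference was not tested. The summed level of 12 fibroblast and marrow stroma markers ran from 653.1 to 697.0 CPM in WT libraries and from 964.0 to 1050.0 CPM in KAT8-deficient libraries. Of the 11 tested, 9 were higher in KAT8-deficient cells, with log2 differences of 1.27 for Lum (lumican) and 0.78 for Dcn (decorin), and 0 were lower. Lepr, a marker of marrow stroma, was near 0. The 4 mesothelial markers summed to 203.8 to 239.7 CPM in WT and 313.4 to 379.1 CPM in KAT8-deficient libraries, and 4 of 4 were higher. Smooth muscle and pericyte markers summed to 521.1 to 642.4 CPM and 600.6 to 835.9 CPM, and endothelial markers to 77.4 to 117.1 CPM and 110.8 to 124.3 CPM. Of 5 smooth muscle and pericyte markers tested, 3 were higher over both states and 0 lower, with 2 of the 5 below 0. Of 3 endothelial markers tested, 2 were higher and 1 was lower. The lower one was the scarce Cdh5, at 0.978 to 1.87 CPM in WT and 0.214 to 0.849 CPM in KAT8-deficient libraries. Osteoblast markers reached no more than 20.9 CPM in sum, with Bglap2, Ibsp and Dmp1 at 0 in all 8 libraries. Of 2 osteoblast markers tested, 1 was higher over both states and 0 lower. The higher one was Alpl, at 4.37 to 5.0 CPM in WT and 5.9 to 8.45 CPM in KAT8-deficient libraries. Chondrocyte markers reached no more than 11.8 CPM, with Acan and Snorc at 0 in all 8, and neutrophil markers no more than 8.0 CPM. In each of these lists 0 of 2 tested genes were called over both states. The summed macrophage markers were lower in KAT8-deficient libraries, at 8547.6 to 9647.4 CPM against 14938.6 to 16380.6 CPM, and 1 gene, the lysozyme gene Lyz2, carried most of this gap. Lyz2 stood at 11027.8 to 12139.5 CPM in WT and 5202.2 to 5943.5 CPM in KAT8-deficient libraries. The other 7 macrophage markers summed to 3758.7 to 4241.1 CPM in WT and 3345.4 to 3733.9 CPM in KAT8-deficient libraries. Of these 7, averaged over both states, Csf1r and Adgre1 were lower, Fcgr1 was higher and 4 were not called. Adgre1 was lower under R848 (log2 -0.41) and not in untreated cells (log2 0.10). Divided by the stroma marker sum of the same library, the collagen sum was 5.6 and 7.1 in untreated WT and 4.88 and 5.25 in R848-treated WT. This ratio was 5.86 and 5.47 in untreated KAT8-deficient and 4.62 and 5.09 in R848-treated KAT8-deficient libraries, so that the genotypes overlapped in each state. The overlap holds for the sum, in which Col1a2 held 28.6% to 32.1% and Col1a1 17.1% to 25.0% of collagen counts. The stroma sum rested mainly on Dcn and Pdgfra. Dcn was at 246.4 to 281.6 CPM in WT and 404.8 to 497.8 CPM in KAT8-deficient libraries. Pdgfra was at 221.9 to 284.3 CPM in WT and 291.8 to 349.5 CPM in KAT8-deficient libraries. Single collagens were not divided by the stroma sum, nor was the collagen sum divided by single markers.

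**Figure D2:**
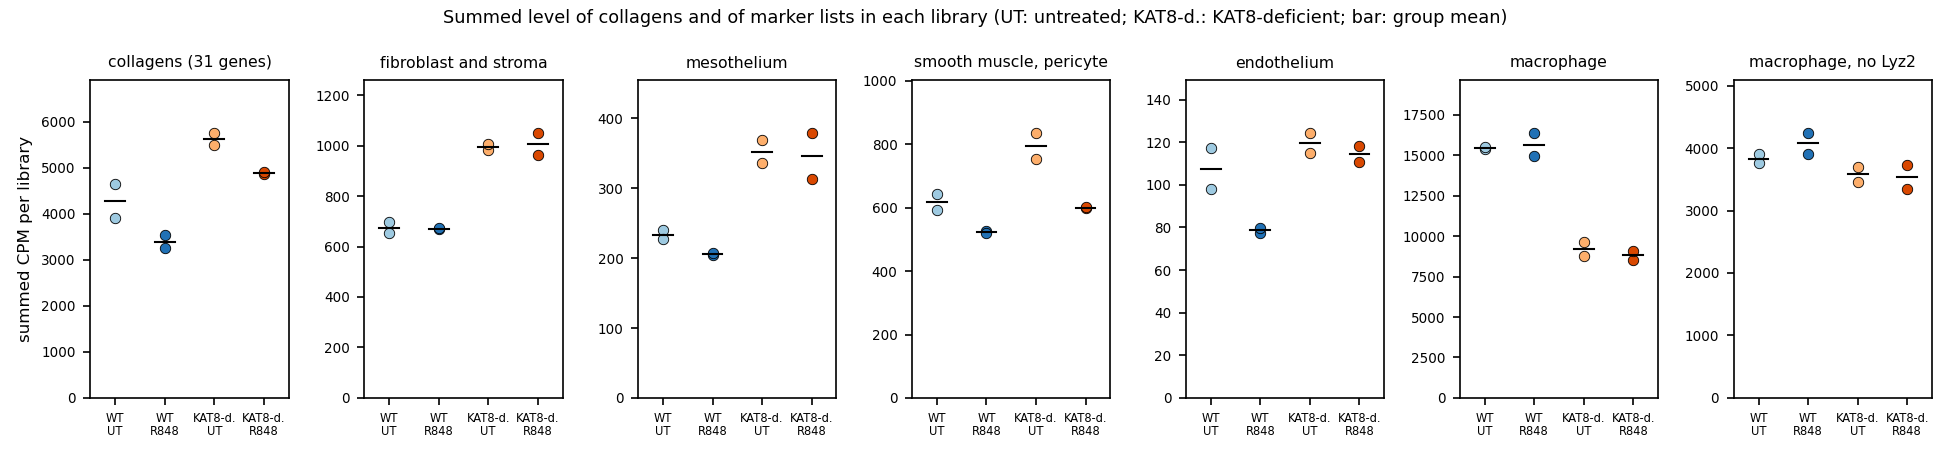
Summed CPM per library of the 31 collagens, of 5 lists of cell type markers and of the macrophage list without Lyz2, each on its own axis starting at 0, with bars at the group means. The stroma sum spans 653.1 to 697.0 CPM in WT and 964.0 to 1050.0 CPM in KAT8-deficient libraries. The macrophage sum spans 14938.6 to 16380.6 CPM and 8547.6 to 9647.4 CPM, and without Lyz2 it spans 3758.7 to 4241.1 CPM and 3345.4 to 3733.9 CPM.

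Several of the collagen genes are neighbours in the genome (GRCm38 coordinates from GENCODE M21). Col4a1 (chromosome 8, 11198423 to 11312826, minus strand) and Col4a2 (chromosome 8, 11312805 to 11449287, plus strand) are annotated head to head, and their first exons share 22 bases. This stretch is shown because reads within it cannot be assigned to 1 gene without strand, and on the plus strand it reads as follows, at chr8:11312805-11312826.
Col4a1 and Col4a2 overlap: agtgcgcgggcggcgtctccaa
Col4a6 (chromosome X, 141165403 to 141474076, minus strand) and Col4a5 (chromosome X, 141475385 to 141689234, plus strand) likewise point away from each other, with their first bases 1309 positions apart. Col3a1 (chromosome 1, 45311538 to 45349706, plus strand) and Col5a2 (chromosome 1, 45374321 to 45503282, minus strand) point towards each other, with 24614 bases between their ends. Col6a2 (chromosome 10, 76595762 to 76623630) and Col6a1 (chromosome 10, 76708792 to 76726168) lie on the minus strand 85161 bases apart. In each of these 4 pairs both genes were higher in KAT8-deficient cells over both states, as were 12 collagens outside the pairs. The pairs do not cover every neighbour. Col6a6 (105687809 to 105828160), Col6a5 (105856078 to 105960643) and Col6a4 (105989454 to 106096783) lie near each other on the minus strand of chromosome 9. Of these, Col6a6 was higher over both states (log2 2.00, edgeR adjusted p = 0.0218). Col6a5 (0.77, edgeR adjusted p = 0.147) and Col6a4 (-0.35, edgeR adjusted p = 0.482) were not called.

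Promoter windows of RefSeq (GRCm38.p6, 250 bases before to 50 after the start) were found for 26 of the 31 collagens, with no entry for Col12a1, Col14a1, Col1a1, Col5a2 or Col9a3. The 150 bases before the start are shown for Col3a1, Col24a1 and Col6a3, which had large genotype differences (given next), and for Col5a3, a fibrillar gene that was not called. They were picked with these results known. Capitals mark a match to CCAAT (the CCAAT box), GGGCGG (the GC box) or TATAAA (the TATA box) on either strand, no match overlaps another, and each run reads 5′ to 3′ on the gene's strand. Their places are chr1:45311388-45311537 (plus), chr3:145292322-145292471 (plus), chr1:90843972-90844121 (minus) and chr9:20815068-20815217 (minus), in that order.
Col3a1: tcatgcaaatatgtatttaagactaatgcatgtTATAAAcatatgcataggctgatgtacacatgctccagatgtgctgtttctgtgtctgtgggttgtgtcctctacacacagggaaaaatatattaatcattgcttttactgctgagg
Col24a1: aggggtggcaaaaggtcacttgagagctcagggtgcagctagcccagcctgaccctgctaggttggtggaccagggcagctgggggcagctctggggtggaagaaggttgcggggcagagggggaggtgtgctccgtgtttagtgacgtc
Col6a3: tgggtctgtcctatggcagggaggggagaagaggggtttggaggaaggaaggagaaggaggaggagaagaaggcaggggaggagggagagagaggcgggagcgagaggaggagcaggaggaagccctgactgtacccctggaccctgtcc
Col5a3: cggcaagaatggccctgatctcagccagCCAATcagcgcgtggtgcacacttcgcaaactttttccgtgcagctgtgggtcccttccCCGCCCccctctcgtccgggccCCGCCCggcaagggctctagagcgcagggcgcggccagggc
The Col3a1 stretch held TATAAA from base 117 before the start, and the Col5a3 stretch held CCAAT from base 122 and the complement of GGGCGG from bases 63 and 41. The stretches of Col24a1 and Col6a3 held none of the 3 motifs. Over the whole windows, CCAAT was in 6 of the 17 higher collagens with a window, in 4 of the 9 others and in 37.4% of all 32851 windows. GGGCGG was in 12 of 17, 8 of 9 and 35.7%, and TATAAA in 1 of 17, 1 of 9 and 13.6%. These matches are a description of letters and not of factor binding.

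Among the fibrillar collagens, 5 of 10 were higher in KAT8-deficient cells over both states. Col3a1, the chain of type III collagen, which forms fine fibrils together with type I, differed most in this class, by 2.03-fold. Its levels were 257.5 and 267.1 CPM in untreated WT, 179.2 and 206.5 in R848-treated WT, 507.7 and 457.7 in untreated KAT8-deficient and 486.9 and 380.1 in R848-treated KAT8-deficient libraries. The genotypes did not overlap: the lowest KAT8-deficient library had 380.1 CPM and the highest WT library 267.1 CPM. In untreated cells the log2 difference was 0.88 ± 0.119 (SE; edgeR adjusted p = 0.00805), and with R848 it was 1.17 ± 0.12 (edgeR adjusted p = 0.000684). Col24a1, a minor fibrillar chain, differed by 1.77-fold over both states. It stood at 28.0 and 28.2 CPM in untreated WT, 26.8 and 29.2 in R848-treated WT, 50.5 and 46.1 in untreated KAT8-deficient and 50.8 and 51.2 CPM in R848-treated KAT8-deficient libraries. Genotype separated these libraries, while the treated and untreated ones of a genotype lay close together. In untreated cells the log2 difference was 0.78 ± 0.0784 (edgeR adjusted p = 0.00257), and with R848 it was 0.86 ± 0.0783 (edgeR adjusted p = 0.000503).

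The abundant chains of types I and V differed less. Col1a2, the alpha-2 chain of type I collagen, the main fibril protein of bone and skin, was at 1244.6 and 1393.5 CPM in untreated WT and 1046.1 and 1100.8 in R848-treated WT. It was at 1672.2 and 1613.5 CPM in untreated KAT8-deficient and 1453.3 and 1402.1 CPM in R848-treated KAT8-deficient libraries. Every KAT8-deficient library was above every WT library, and the untreated log2 difference was 0.32 ± 0.067 (SE; edgeR adjusted p = 0.0371). With R848 it was 0.41 ± 0.067 (edgeR adjusted p = 0.00481). Its partner chain Col1a1 did not pass the test in either state. Col1a1 stood at 773.1 and 1157.3 CPM in untreated WT, 600.6 and 727.6 in R848-treated WT, 1145.9 and 1043.7 in untreated KAT8-deficient and 832.6 and 967.2 CPM in R848-treated KAT8-deficient libraries. The genotypes overlapped, and the untreated WT libraries lay 0.58 apart on the log2 scale, against 0.16 for Col1a2. The log2 difference of Col1a1 averaged over both states was 0.31 (SE 0.123, edgeR adjusted p = 0.118), close in size to that of Col1a2, 0.36 (SE 0.047, edgeR adjusted p = 0.00139). Col1a1 was also the exception among the 17 collagens with a mean of at least 10 CPM, of which 16 were higher.

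Type V collagen sits inside type I fibrils and sets their diameter. Col5a2 was at 260.2 and 250.1 CPM in untreated WT, 220.7 and 222.9 in R848-treated WT, 363.2 and 354.3 in untreated KAT8-deficient and 319.2 and 310.5 CPM in R848-treated KAT8-deficient libraries. Its libraries of a group lay closer together than those of any other collagen, at most 0.06 apart on the log2 scale, and the genotypes did not overlap. The log2 difference of Col5a2 was 0.49 ± 0.0548 (SE; edgeR adjusted p = 0.00395) in untreated cells. With R848 it was 0.51 ± 0.0549 (edgeR adjusted p = 0.00087). Its partner Col5a1 had 124.3 and 152.6 CPM in untreated WT, 114.6 and 135.5 in R848-treated WT, 174.6 and 170.4 in untreated KAT8-deficient and 138.3 and 159.9 CPM in R848-treated KAT8-deficient libraries. Here the groups overlapped, since the second untreated WT library was above the first R848-treated KAT8-deficient library. Col5a1 passed the test over both states (log2 0.29, SE 0.0833, edgeR adjusted p = 0.0453) and in neither state alone. The other 4 fibrillar genes were not called: Col27a1 at 8.24 to 11.7 CPM, Col5a3 at 3.69 to 7.05 CPM, Col11a2 at 1.15 to 3.26 CPM and Col11a1, under a mean of 1 CPM. Col27a1 (log2 -0.15) and Col11a2 (log2 -0.60) had values below 0 over both states, with edgeR adjusted p = 0.259 and 0.121.

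Of the 7 genes of basement membranes and the zone around them, 6 were higher in KAT8-deficient cells over both states, by log2 differences of 0.45 to 0.57. Col4a1 and Col4a2, which form the type IV network found in nearly all basement membranes, were the most abundant. Col4a1 was at 256.8 and 306.3 CPM in untreated WT, 241.8 and 251.0 in R848-treated WT, 366.7 and 382.0 in untreated KAT8-deficient and 346.0 and 348.6 CPM in R848-treated KAT8-deficient libraries. Col4a2 was at 152.5 and 186.5, 140.6 and 153.9, 235.8 and 242.5, and 205.5 and 229.2 CPM in the same order of groups. Both separated the genotypes fully. The log2 differences of Col4a1 were 0.41 (edgeR adjusted p = 0.0309) untreated and 0.49 (edgeR adjusted p = 0.00531) under R848, and those of Col4a2 were 0.50 (edgeR adjusted p = 0.0323) and 0.56 (edgeR adjusted p = 0.00783).

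Col4a5 and Col4a6, chains of a type IV network with a narrower distribution that lie side by side on chromosome X, showed the same direction. Col4a5 stood at 46.5 and 48.1 CPM in untreated WT, 40.4 and 46.2 in R848-treated WT, 67.8 and 65.2 in untreated KAT8-deficient and 68.9 and 58.6 CPM in R848-treated KAT8-deficient libraries. Col4a6 stood at 12.4 and 14.6, 12.7 and 12.4, 19.8 and 19.3, and 19.8 and 16.1 CPM in the same order. The genotypes overlapped for neither gene. Col4a5 rose in both states (log2 0.49, edgeR adjusted p = 0.0297 untreated, and 0.56, edgeR adjusted p = 0.00664 under R848), while Col4a6 passed the test under R848 (log2 0.52, edgeR adjusted p = 0.0324) and not in untreated cells (log2 0.53, edgeR adjusted p = 0.058). Col18a1, whose C-terminal fragment is endostatin, was at 17.3 to 20.5 CPM in WT and 25.3 to 29.4 CPM in KAT8-deficient libraries and rose in both states. Col15a1, its relative, was at 3.45 to 5.21 CPM in WT and 5.37 to 6.61 CPM in KAT8-deficient libraries, and rose over both states (log2 0.57, edgeR adjusted p = 0.0314) but was called in neither alone. Col7a1, the chain of anchoring fibrils of the skin, lay between 0.373 and 0.99 CPM and was not called (log2 0.38, edgeR adjusted p = 0.391).

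**Figure D3:**
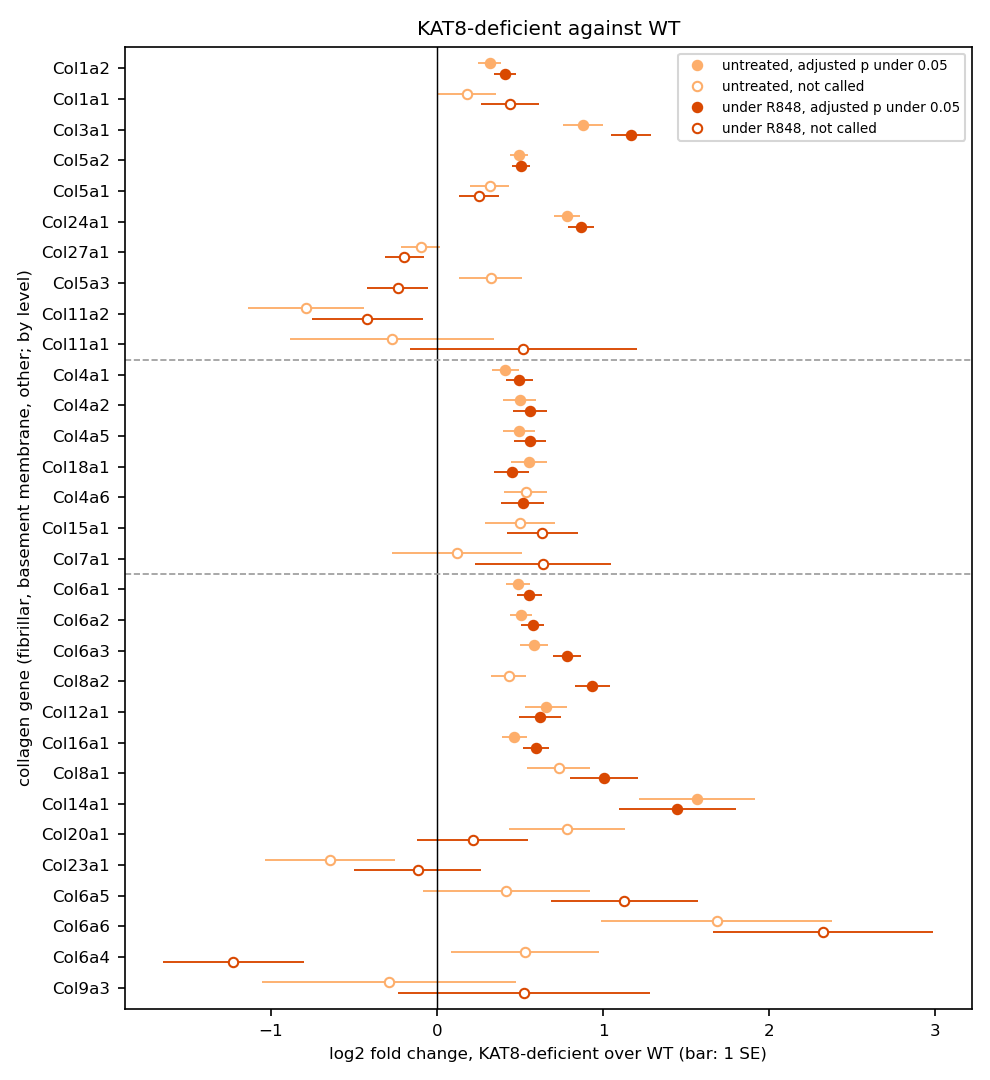
Log2 fold change of KAT8-deficient over WT for all 31 collagens, untreated (light) and under R848 (dark), with bars of 1 SE and filled points where the edgeR adjusted p was under 0.05. Filled points number 14 untreated and 17 under R848, and all lie to the right of 0. The widest bars belong to genes of low level such as Col6a6 and Col9a3.

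Of the 14 other collagens, 9 were higher in KAT8-deficient cells over both states. The 3 main chains of type VI, the beaded filaments that link cells to the surrounding matrix, rose in both states. Col6a1 was at 325.6 and 362.3 CPM in untreated WT, 280.8 and 281.5 in R848-treated WT, 498.9 and 467.0 in untreated KAT8-deficient and 397.4 and 429.9 CPM in R848-treated KAT8-deficient libraries. Col6a2 was at 224.2 and 247.8, 180.7 and 178.8, 341.0 and 329.0, and 259.4 and 276.3 CPM in that order, and Col6a3 at 71.7 and 81.5, 58.4 and 58.8, 115.9 and 113.6, and 94.4 and 107.2 CPM. In all 3 genes the KAT8-deficient libraries lay above the WT libraries, and R848-treated libraries of each genotype lay below the untreated ones. The untreated log2 differences were 0.49, 0.51 and 0.58, with edgeR adjusted p = 0.0111, 0.00773 and 0.00997, for Col6a1, Col6a2 and Col6a3. Under R848 they were 0.56, 0.58 and 0.78, with edgeR adjusted p = 0.00175, 0.00111 and 0.000858. The alternative chains of type VI, which can take the place of Col6a3, were scarce. Col6a6 was at 0.186 to 0.326 CPM in WT and 0.42 to 1.6 CPM in KAT8-deficient libraries (log2 2.00 over both states, SE 0.481, edgeR adjusted p = 0.0218), while Col6a4 and Col6a5 were not called.

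Type VIII collagen forms a hexagonal network under endothelium. Its chain Col8a2 stood at 33.1 and 37.5 CPM in untreated WT, 24.0 and 24.5 in R848-treated WT, 48.2 and 46.9 in untreated KAT8-deficient and 50.9 and 41.8 CPM in R848-treated KAT8-deficient libraries. Its partner Col8a1 stood at 3.49 and 3.48, 2.03 and 2.14, 6.67 and 4.92, and 3.96 and 4.43 CPM in that order. The genotypes did not overlap in either gene. With R848 the log2 difference was 0.94 ± 0.107 (SE; edgeR adjusted p = 0.00101) for Col8a2 and 1.01 ± 0.205 (edgeR adjusted p = 0.0132) for Col8a1. In untreated cells Col8a2 had 0.43 with edgeR adjusted p = 0.0592.

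FACIT collagens attach to the surface of fibrils. Col12a1 was at 25.8 and 29.1 CPM in untreated WT, 21.0 and 23.8 in R848-treated WT, 42.7 and 43.8 in untreated KAT8-deficient and 38.7 and 30.3 CPM in R848-treated KAT8-deficient libraries. Col16a1 was at 23.2 and 23.7, 19.4 and 19.6, 33.2 and 31.6, and 29.5 and 29.4 CPM in that order. Col14a1 was lower in level, at 0.923 to 1.84 CPM in WT and 3.58 to 4.67 CPM in KAT8-deficient libraries, a 2.84-fold difference over both states. The genotypes overlapped in none of these 3 genes. Col12a1, Col16a1 and Col14a1 rose in untreated cells by 0.66, 0.47 and 1.57 (edgeR adjusted p = 0.0271, 0.0154 and 0.0456) and under R848 by 0.62, 0.60 and 1.45 (edgeR adjusted p = 0.0135, 0.00168 and 0.0283) on the log2 scale. Col9a3, Col20a1 and the transmembrane collagen Col23a1, the remaining genes of the 14 other collagens, had means under 2 CPM and were not called. Col20a1 shares 79 bases of exon with the gene BX649560.1 on the same strand and Col9a3 shares 234 bases with Tcfl5 on the other, so their counts are uncertain. The sources used here give no strand setting for the counting.

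The next comparison asked how collagens responded to R848. In WT cells 7 of 31 fell, where 6.7% of all genes tested fell, and 0 rose, where 6.94% rose. They were the fibrillar Col1a2, Col3a1 and Col5a2 and the others Col6a1, Col6a2, Col6a3 and Col8a2. None of the 7 basement membrane genes was called. The log2 responses were -0.30 (edgeR adjusted p = 0.0205) for Col1a2, -0.44 (0.0415) for Col3a1 and -0.20 (0.0437) for Col5a2. For type VI they were -0.29 (edgeR adjusted p = 0.0314) for Col6a1, -0.39 (0.00608) for Col6a2 and -0.38 (0.0184) for Col6a3. Col8a2 had the largest fall of the 7, at -0.54 (SE 0.108, edgeR adjusted p = 0.0118). All 7 were among the 20 collagens higher in KAT8-deficient cells. These comparisons share the WT libraries. The untreated and treated WT libraries overlapped in none of the 7, as the values above show. The 7 were called from these same libraries, so this order adds no support, and its share over all genes is not given here. Col1a1 had the same size of response as Col8a2 with a wider error (log2 -0.54, SE 0.174, edgeR adjusted p = 0.0789). Col24a1 and Col18a1 had responses near 0, at -0.01 and 0.12, and Col5a3 had 0.62 (edgeR adjusted p = 0.0608). The count of 7 fell to 1 without the second untreated WT library and to 1 without either R848-treated WT library, and it was 4 when the 4 WT libraries were fitted alone. Some markers of other cell types moved here too, and their part was not tested. Of 5 smooth muscle and pericyte markers 3 fell, and of 3 endothelial markers 1 fell, beside 6.7% of all genes. Of 4 mesothelial markers 0 were called. Of 11 stroma markers Kitl and Cxcl12 fell and Pdgfra rose. The stroma sum was 697.0 and 653.1 CPM in untreated WT and 667.5 and 672.5 CPM in R848-treated WT libraries, so that the states overlapped.

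In KAT8-deficient cells edgeR called 0 of 31 collagens under R848, where 0.135% of all genes fell and 0.499% rose, and 6 had an unadjusted p under 0.05. DESeq2 called 1, Col6a2, lower, and limma-voom called 0. The log2 responses of the genes that fell in WT cells were here -0.20 for Col1a2, -0.16 for Col3a1, -0.19 for Col5a2, -0.22 for Col6a1, -0.32 for Col6a2, -0.19 for Col6a3 and -0.04 for Col8a2. Col6a2 was closest to the threshold (edgeR adjusted p = 0.0868). The difference between the responses was tested itself, as the interaction. It was called for 0 of 31 collagens by edgeR (0.228% of all genes), by DESeq2 and by limma-voom, so that a weaker response in KAT8-deficient cells was not shown. In edgeR 2 collagens had an unadjusted p under 0.05, Col8a2 (interaction 0.51 on the log2 scale, SE 0.149, edgeR adjusted p = 0.221) and the scarce Col6a4 (-1.76, SE 0.616, edgeR adjusted p = 0.314). Over both genotypes 9 collagens were lower under R848 (7.31% of all genes) and 0 higher (7.53%). These were the 7 of WT cells together with Col8a1 (log2 -0.60, edgeR adjusted p = 0.0224) and Col16a1 (log2 -0.20, edgeR adjusted p = 0.0411). This count was 4 without the first R848-treated WT library or the first untreated KAT8-deficient library, and 5 without the second untreated or second R848-treated WT library.

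**Figure D4:**
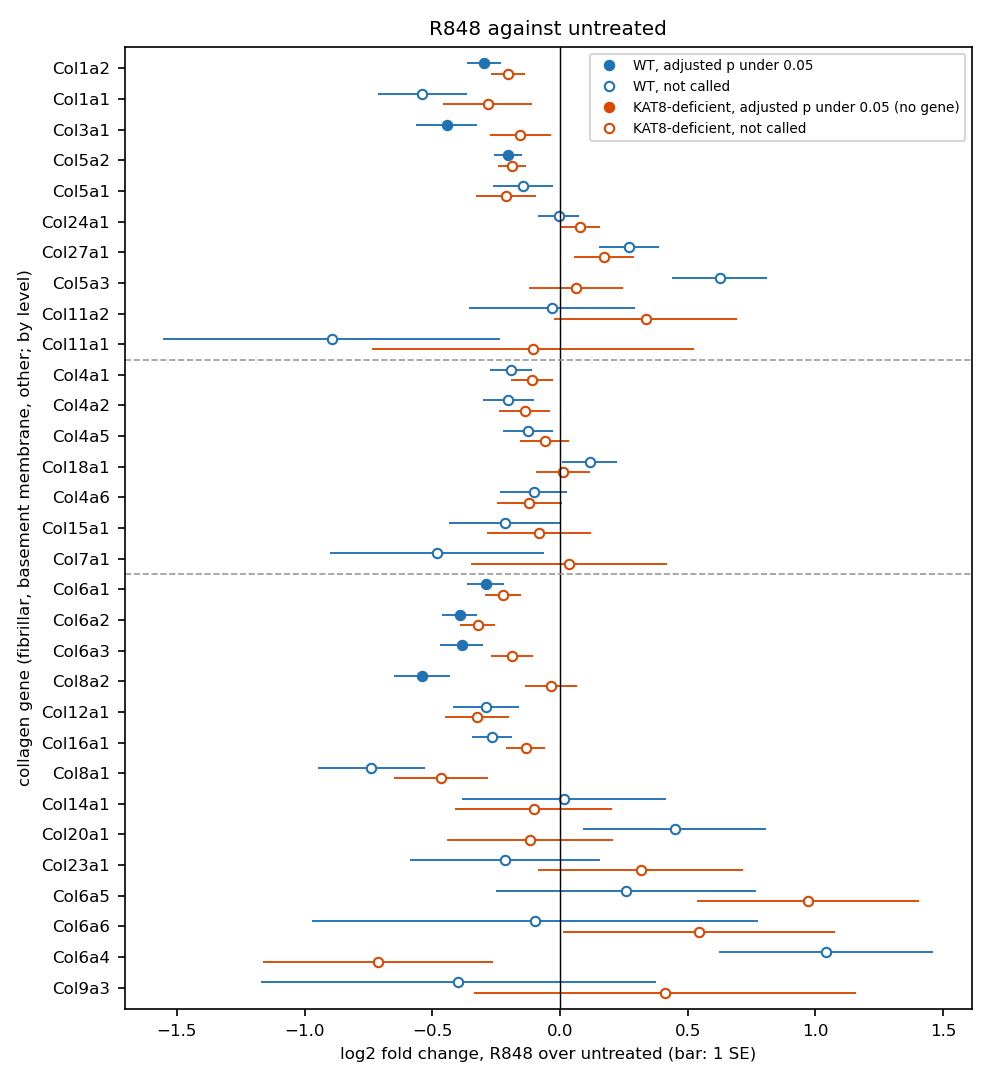
Log2 response to R848 of all 31 collagens in WT (blue) and KAT8-deficient cells (orange), with bars of 1 SE and filled points where the edgeR adjusted p was under 0.05. The 7 filled points are all in WT cells and lie between -0.54 and -0.20.

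The proportions of chains that can assemble into 1 molecule were followed across the libraries. As ratios of levels per kilobase of exon, Col1a1 to Col1a2 ran from 1.08 to 1.57, with the highest value in the second untreated WT library. The size of each ratio depends on the length used, while its relative change between libraries does not. For Col1a1 to Col1a2 the mean was 1.25 over all exon bases and 0.595 over the longest transcript. Col4a1 to Col4a2 ran from 1.35 to 1.53, Col4a5 to Col4a6 from 3.76 to 4.45 and Col5a1 to Col5a2 from 0.49 to 0.689. Col8a2 to Col8a1 was the most spread, from 12.6 to 22.4. Type VI held the ratios that separated groups. Col6a1 to Col6a2 was 2.91 to 2.99 in the R848-treated libraries of both genotypes and 2.7 to 2.78 in the untreated ones (exact permutation p = 0.0286, adjusted 0.2). Col6a1 to Col6a3 was 12.1 to 13.1 in WT and 11.0 to 11.8 in KAT8-deficient libraries (exact permutation p = 0.0286, adjusted 0.2). With 4 libraries against 4, p = 0.0286 is the smallest that the two-sided exact permutation test can give, and none of the 14 tests on 7 pairs of chains passed after Benjamini-Hochberg adjustment. Ratios between chains of different types were given for 3 pairs, chosen with results known and not tested. Col1a2 to Col4a1 ran from 2.42 to 2.91 and Col6a1 to Col4a1 from 1.91 to 2.32, so that the highest library was 1.21 times the lowest in each. That is a narrower range than those of Col1a1 to Col1a2 (1.45 times), Col5a1 to Col5a2 (1.41 times) and Col8a2 to Col8a1 (1.78 times). Col3a1 to Col1a2 was 0.217 to 0.262 in WT and 0.343 to 0.424 in KAT8-deficient libraries. The highest library was 1.96 times the lowest for Col3a1 to Col1a2, the widest range of all pairs given. The remaining pairs of 1 type had the narrowest ranges. These were Col6a1 to Col6a2 (1.11 times), Col4a1 to Col4a2 (1.13 times), Col4a5 to Col4a6 (1.18 times) and Col6a1 to Col6a3 (1.2 times). Whether steady proportions are particular to chains of 1 type was not tested.

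**Figure D5:**
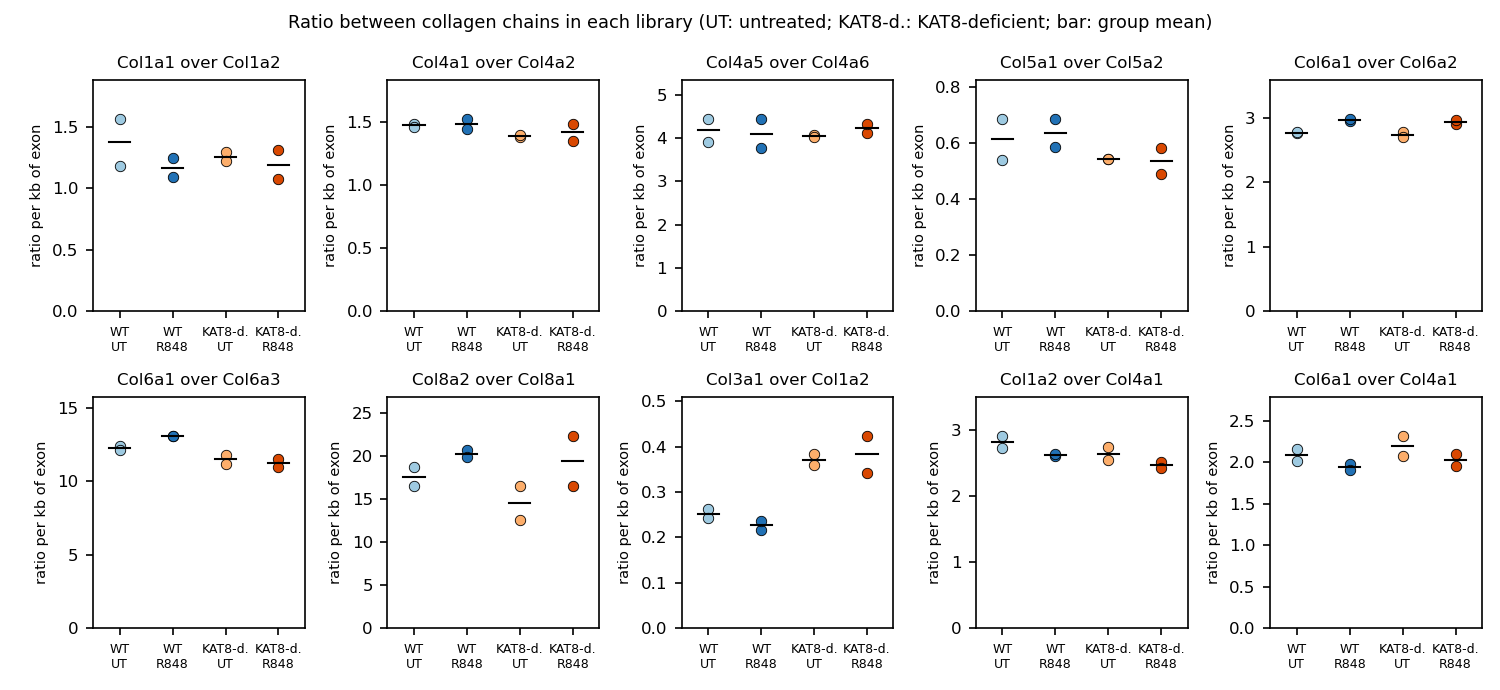
Ratio of levels per kilobase of exon for 7 pairs of chains of 1 type and 3 pairs of different types, 1 point per library on axes starting at 0, with bars at the group means. The highest library is 1.13 times the lowest for Col4a1 over Col4a2, 1.78 times for Col8a2 over Col8a1, 1.21 times for Col1a2 over Col4a1 and for Col6a1 over Col4a1, and 1.96 times for Col3a1 over Col1a2.

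Genes that act on collagen were followed as 4 further lists, with the same backgrounds of all genes as above. Of 20 tested genes of chain folding and modification, 8 were higher in KAT8-deficient cells over both states and 1 was lower. Plod2, a lysyl hydroxylase, was higher by 0.40 on the log2 scale, P3h4 by 0.40 and P4hb, a subunit of prolyl 4-hydroxylase, by 0.34, while Tmem38b was lower, at -0.22. Of 12 genes of procollagen processing and crosslinking 7 were higher and 0 lower, among them Adamts2, which removes the N-propeptide, by 0.71, Loxl1 by 0.68 and Loxl2 by 0.58. Of 9 receptors 4 were higher, namely the collagen-activated kinases Ddr1 (0.57) and Ddr2 (0.33), the uptake receptor Mrc2 (0.39) and the integrin subunit Itga10 (0.58). The TGF-beta list, a pathway known to induce collagen genes, was mixed, with 5 of 18 higher and 1 lower. The higher genes were the ligand Tgfb3 (0.82), the receptors Tgfbr3 (0.39) and Tgfbr2 (0.28), Ski (0.27) and Smad3 (0.24), and the lower gene was Skil (-0.44). Under R848 all 5 higher genes were called, and in untreated cells Tgfb3 alone was. Tgfbr2 had 0.10 untreated and 0.47 under R848, and Ski had 0.09 and 0.45. Ski and Skil, related repressors of the pathway, had opposite signs. The median differences of the lists, in the order given, were 0.20, 0.33, 0.11 and 0.13, beside 0.52 for the collagens and -0.01 for all genes.

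Under R848 in WT cells, Plod1 (-0.31) and P3h4 (-0.32) fell in the folding list. In the processing list Loxl1, Loxl3 and Adamts3 fell and Lox, a lysyl oxidase, rose by 0.26. Mrc2 fell by 0.37 on the log2 scale and was the 1 receptor called. In the TGF-beta list Tgfb3 (-0.85), Tgfbr2 (-0.60) and Ski (-0.44) fell, and Tgfbi (0.46) and Skil (0.42) rose.

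The 13 genes with a collagen name that did not reach the minimum had at most 7 counts in any library. They included Col2a1 (6 counts over all libraries), the main fibrillar chain of cartilage, Col10a1 (4), a marker of hypertrophic chondrocytes, Col4a3 (4) and Col4a4 (13), which belong to the kidney type IV network, and Col17a1 (6), of hemidesmosomes. Col9a1 had 0 counts in all 8 libraries, which allows up to 0.162 CPM in a library by the floor of 3 counts. Just outside the minimum was Col22a1 (32 counts in all), and just inside were Col9a3 (76), Col6a4 (85), Col11a1 (91) and Col6a6 (101).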

How the data were processed

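The deposited values were raw counts per Ensembl gene, 1 column for each of 8 libraries, per the file headers. HISAT2, StringTie 1.3.0, edgeR and mm10 are named, with no roles, per the submitters' processing notes. The sources used here give no trimming, annotation, strand or counting settings, and poly(A) capture favours polyadenylated RNA. Symbols and positions came from GENCODE M21 (GRCm38), and gene rows without a symbol held 0.102% of counts and stayed out. Total counts ran from 18550977 to 21384532 and replicates differed beyond counting error (chi-square per degree of freedom 7.41 to 12).

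Counts were filtered with filterByExpr (14040 of 34745 genes), normalised by TMM and fitted over all 8 libraries with edgeR 4.0.16 (R 4.3.3), 1 mean per group and 4 residual degrees of freedom. Tests were two-sided, adjusted over all genes by Benjamini-Hochberg at 0.05, and SE is the absolute log2 fold change over the square root of F. CPM use TMM library sizes. Chain ratios were compared by exact permutation.

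The members and lists were chosen with earlier results of these data known. Values in every library were given for the 4 most abundant genes of a class and every gene called in any of 7 comparisons, and at most 4 called genes per partner list and comparison, those with the smallest adjusted p, were named. Ski and Smad3 in the genotype difference and Skil in the WT response fall outside this rule and were named after their values were seen, to complete counts of 5 or fewer. Some of these are given as a range over the libraries of a genotype, and Col27a1, Col5a3, Col11a2, Col11a1, Col6a4, Col6a5, Col7a1, Col9a3, Col20a1 and Col23a1 are named only to account for them. Alternatives were DESeq2 1.42.0 (size factors and Wald test), no filter, a filter of 5 CPM in 2 libraries, a replicate block, the 4 libraries of a comparison alone and omission of each library in turn. After seeing the data, limma-voom (limma 3.58.1) and a robust estimate of the spread were added. On simulated counts for the untreated genotype difference (13713 genes), the fit recovered 48% of 100 genes changed 1.5-fold and 85% of 100 genes changed 2-fold, with 20 false calls.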

Additional observations from a re-analysis of the deposited data

How the results depend on the processing

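Of 31 collagens, the number called in the R848 response of WT cells was 7, ran from 1 to 8 when 1 library was left out, and was 4 with the 4 libraries alone. The genotype difference in untreated cells called 14, 2 to 15 with a library left out and 9 with the 4 libraries alone. Under R848 it called 17 and 8 to 19 with a library left out. The mean R848 response called 9 and 4 to 9, and the mean genotype difference 20 and 17 to 21. In the R848 response of KAT8-deficient cells 1 was called with no filter, with robust estimation and by DESeq2, against 0. With a library left out, the lone library of its group is assumed to vary like the other groups. Leaving out a library also reduces the number of samples. Called everywhere were Col24a1 and Col5a2 in untreated cells, 8 of the 17 under R848, and 17 of the 20 in the mean genotype difference (not Col5a1, Col15a1 or Col6a6). In WT cells only Col6a2 kept its R848 call under every alternative run. The replicate numbers did not pair the libraries (correlations of deviations -0.06 to 0.048). With a replicate block the counts were 7, 0, 13 and 17 for R848 in WT, R848 in KAT8-deficient, and genotype untreated and under R848, then 0 for the interaction, 8 for the mean R848 response and 20 for the mean genotype difference. Genes under 2 CPM carried the widest errors.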
